A study of Mus musculus with 24 samples.

Results

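The collagen chains, the laminin chains and 5 further basement membrane and matrix proteins (Nid1, Nid2, Hspg2, Agrn and Sparc) were followed across 3 mouse RNA-seq libraries. They were chosen by gene symbol alone: every collagen alpha chain, every laminin alpha, beta or gamma chain, and the 5 named proteins, which gave 60 genes of the 23947 in the expression table. The 60 were 44 collagen chains, 11 laminin chains and the 5 others. The libraries came from lens fiber and lens epithelium of newborn CD-1 mice (postnatal day 1, P1) and from forebrain of CD-1 embryos at E12.5, a stage counted in days of gestation. CD-1 is an outbred stock, and the labels give no mutation or treatment for any of these groups. The study also mapped Pax6 binding and histone marks in forebrain and whole lens, which were not used here. Each group was 1 library of total RNA from dissected tissue, so no difference below could be checked against replicates, and none carries a p-value. Lens and forebrain differ in age as well as tissue, and these cannot be told apart.

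The lens is wrapped in a capsule, a thick basement membrane that the lens cells themselves secrete throughout life. Basement membranes hold a network of type IV collagen and a network of laminin, each laminin being a trimer of 1 alpha, 1 beta and 1 gamma chain. Nidogens bridge both networks, and heparan sulfate proteoglycans such as perlecan and agrin bind to them. The lens epithelium is the single layer of dividing cells at the front, and its progeny elongate into the fibers that fill the lens with crystallins. Fibrillar collagens, by contrast, are typical of connective tissue, of the vitreous body behind the lens and, around the forebrain, of meninges and vessels.

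Levels are given as RPKM, read numbers divided by transcript length and library depth, so they can be compared between genes within a library. Fold differences are log2 ratios of RPKM + 1, computed where a gene reached 1 RPKM in either library of the pair, and a gene was counted as higher or lower from 2-fold, a log2 ratio of 1 or -1. In these bulk libraries, fewer cells of a type and less RNA per cell cannot be told apart. Crystallins made up 85.5% of the RPKM of protein-coding genes in the fiber library, 9.07% in the epithelium library and 0.0411% in the forebrain library. The RPKM of all genes summed to 2.60e+06 in fiber, 587475 in epithelium and 598020 in forebrain, so the libraries do not share a common total. The depth of the libraries is unknown, since the table gives RPKM without read counts.

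Most of the defining marker genes were highest in the library of their label. All 12 lens fiber markers reached 1 RPKM in the fiber library, and Birc7 had 284 RPKM there, against 0.583 RPKM in epithelium and 0.168 RPKM in forebrain. All 9 lens epithelium markers reached 1 RPKM in the epithelium library and 4 did so in fiber, where Clu and Pitx3 were higher than in epithelium (Clu at 450.5 RPKM in fiber and 238 RPKM in epithelium, Pitx3 at 37.3 and 35.0 RPKM). The cadherin gene Cdh1 had 0.940 RPKM in fiber, 62.3 RPKM in epithelium and 0.0821 RPKM in forebrain, and the transcription factor gene Foxe3 had 0.433, 19.4 and 0 RPKM in the same order. All 8 progenitor and all 8 neuron markers reached 1 RPKM in forebrain. The epithelium library also held markers of other cells: all 11 endothelial markers (178.7 RPKM summed), 8 of 9 pericyte and smooth muscle markers (113.7 RPKM) and 7 of 8 pigment and ciliary epithelium markers (136.2 RPKM), each list higher in sum there than in the other libraries. In the fiber library the endothelial list summed to 34.4 RPKM, of which Egfl7 gave 32.6 RPKM, and Cldn5 was listed at 0. There the pericyte list summed to 2.38 RPKM and the pigment list to 1.10 RPKM, with 0 of their genes at 1 RPKM. The mesenchyme, fibroblast and meninges list reached 1 RPKM for 2 of 12 genes in fiber, 4 in epithelium and 10 in forebrain, where the small proteoglycan gene Lum had 15.0 RPKM, against 0 RPKM in fiber and 0.0175 RPKM in epithelium. Other genes of that list were highest in lens: Ogn had 167 RPKM in fiber, 37.0 RPKM in epithelium and 2.15 RPKM in forebrain, and Pdgfra had 2.47, 52.9 and 2.89 RPKM in that order.

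**Figure D1:**
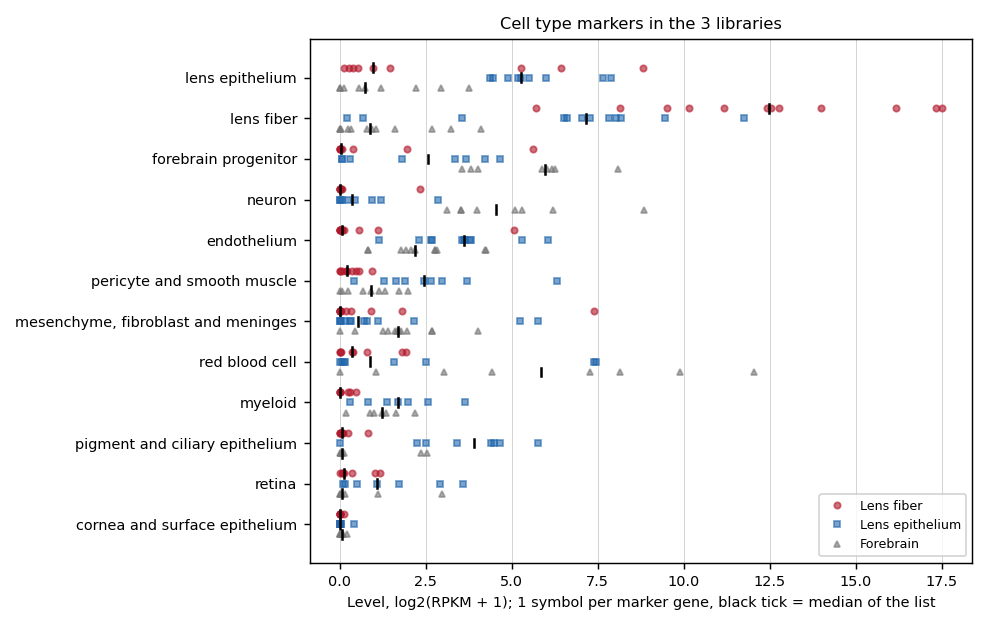
Level of each marker gene on the log2(RPKM + 1) scale, by list, with lens fiber, lens epithelium and forebrain drawn from top to bottom in each row and the median of a list as a black tick. Each of the 11 endothelial markers is higher in epithelium than in fiber, where 5 of them are listed at 0.

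Type IV collagen was the most abundant collagen in both lens libraries. Its 6 chains are encoded by 3 pairs of neighbouring genes: Col4a1 with Col4a2, Col4a3 with Col4a4, and Col4a5 with Col4a6. Col4a1, the main chain of the ubiquitous network, had 470.4 RPKM in fiber, 595 RPKM in epithelium and 18.9 RPKM in forebrain. Col4a2, its partner chain in the same protomers, had 470.4 RPKM in fiber, 532 RPKM in epithelium and 10.8 RPKM in forebrain. Both lens values stood far above the forebrain value for each chain, and the lens libraries lay within 2-fold of each other. As a share of the RPKM of all genes, crystallins included, the 6 type IV chains made up 0.0440% in fiber, 0.224% in epithelium and 0.00602% in forebrain. The log2 ratios for Col4a1 were 4.56 for fiber over forebrain, 4.90 for epithelium over forebrain and -0.34 for fiber over epithelium. For Col4a2 they were 5.32, 5.50 and -0.18 in the same order. Ranked among all genes by RPKM, Col4a2 was 130th in fiber, 60th in epithelium and 4305th in forebrain.

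Col4a5, whose chain joins either the kidney type of network or a network with Col4a6, had 120.3 RPKM in fiber, 102 RPKM in epithelium and 4.98 RPKM in forebrain. Col4a6 had 76.9 RPKM in fiber, 55.4 RPKM in epithelium and 1.24 RPKM in forebrain. These were the only type IV chains with their highest level in fiber, by log2 ratios over epithelium of 0.24 and 0.46, both under 2-fold. When the libraries were set to equal totals without crystallins, those ratios were -0.26 and -0.03, so the direction depends on the scaling. Over forebrain both chains were higher, with log2 ratios of 4.34 and 5.12 in fiber and of 4.10 and 4.66 in epithelium for Col4a5 and Col4a6.

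Col4a3 and Col4a4, known for the basement membranes of the glomerulus, the inner ear and the lens capsule, were the low pair. Col4a3 had 4.29 RPKM in fiber, 20.1 RPKM in epithelium and 0.0414 RPKM in forebrain. Col4a4 had 2.57 RPKM in fiber, 13.7 RPKM in epithelium and 0.0453 RPKM in forebrain. They alone among the type IV chains were lower in fiber than in epithelium by 2-fold or more, with log2 ratios of -2.00 and -2.05, where 28.3% of all genes compared were lower in fiber. Over forebrain, Col4a3 gave 2.34 in fiber and 4.34 in epithelium, and Col4a4 gave 1.77 and 3.82. With 5 RPKM added in place of 1, the fiber over forebrain ratios were 0.88 and 0.58, under 2-fold. Together the type IV chains had 6 of 6 genes higher than forebrain in each lens library, with median log2 ratios of 4.45 in fiber and 4.50 in epithelium. Of all genes compared, 15.9% were higher than forebrain in fiber and 13.7% in epithelium.

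Both abundant pairs of type IV genes start head to head, and their promoter windows are shown. The members of each type IV pair, the low pair Col4a3 and Col4a4 included, ranked the 3 libraries in the same order. Of the low pair only Col4a4 had a window in the RefSeq table, and it is not shown. Each window runs from 250 bases before to 50 bases after the annotated start, on build GRCm38.p6 from RefSeq, written 5′ to 3′ on the gene's own strand. Capitals mark CCAAT and GGGCGG (GC box) motifs found on either strand, none of which overlap. Col4a1 lies at chr8:11312777-11313076 on the minus strand, Col4a2 at chr8:11312555-11312854 on the plus strand, Col4a5 at chrX:141475169-141475468 on the plus strand and Col4a6 at chrX:141474027-141474326 on the minus strand.
Col4a1: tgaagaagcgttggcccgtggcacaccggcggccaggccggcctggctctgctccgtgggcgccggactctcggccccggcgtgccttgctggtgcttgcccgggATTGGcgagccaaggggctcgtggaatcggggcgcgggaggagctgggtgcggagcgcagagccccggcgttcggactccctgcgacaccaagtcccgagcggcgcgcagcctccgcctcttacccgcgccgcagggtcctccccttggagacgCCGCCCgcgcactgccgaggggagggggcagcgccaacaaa
Col4a2: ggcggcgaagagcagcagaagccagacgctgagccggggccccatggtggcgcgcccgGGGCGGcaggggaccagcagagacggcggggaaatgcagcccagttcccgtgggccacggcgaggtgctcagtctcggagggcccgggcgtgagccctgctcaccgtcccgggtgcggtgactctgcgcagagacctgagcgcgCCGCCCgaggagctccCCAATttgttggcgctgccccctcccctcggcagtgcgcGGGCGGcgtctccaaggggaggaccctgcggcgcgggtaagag
Col4a5: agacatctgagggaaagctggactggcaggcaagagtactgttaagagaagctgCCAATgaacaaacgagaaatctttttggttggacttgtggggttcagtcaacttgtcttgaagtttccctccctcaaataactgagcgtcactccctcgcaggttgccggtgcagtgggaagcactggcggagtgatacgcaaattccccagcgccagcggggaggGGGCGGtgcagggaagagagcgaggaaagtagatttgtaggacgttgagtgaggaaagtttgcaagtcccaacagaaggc
Col4a6: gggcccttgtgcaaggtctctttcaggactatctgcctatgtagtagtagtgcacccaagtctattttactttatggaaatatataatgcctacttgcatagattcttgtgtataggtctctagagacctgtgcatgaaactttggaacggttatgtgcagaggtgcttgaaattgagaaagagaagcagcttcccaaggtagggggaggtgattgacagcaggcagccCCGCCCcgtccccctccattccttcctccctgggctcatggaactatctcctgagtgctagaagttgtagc
The starts of Col4a1 and Col4a2 were 21 bases apart and their windows shared 78 bases, while those of Col4a5 and Col4a6 were 1343 bases apart with 842 bases between the windows. Col4a1 held 1 CCAAT and 1 GC box, Col4a2 held 1 CCAAT and 3 GC boxes, Col4a5 held 1 of each, and Col4a6 held 1 GC box. The GC box of Col4a1 lies in the shared bases and is the same site as the last GC box of Col4a2. TATAAA was in none of these 4 windows. Of the 60 genes, 44 had a window in the RefSeq table, and of these 15 held CCAAT, 28 held GGGCGG and 5 held TATAAA in at least 1 window. Over all 32851 windows of the table, the motifs were in 37.4%, 35.7% and 13.6% of windows. A match of letters is a description and not a binding site.

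In the fiber library Col4a1 and Col4a2 were deposited at 470.427 and 470.428 RPKM, a ratio of 1.00. The ratio was 1.12 in epithelium and 1.75 in forebrain. Of 516 genes with at least 100 RPKM in fiber, 4 had another gene within 0.002 RPKM: Col4a1, Col4a2, Dad1 and Lsm4. The annotation of GRCm38.p6 has Col4a1 and Col4a2 overlapping, as it has Col4a3 and Col4a4. The sources used here do not say whether reads were counted by strand, so reads in a shared stretch may belong to either gene. The annotated starts of Col4a1 and Col4a2 lie 21 bases apart, but the length of their overlap was not measured. Its part in the near-equal fiber values was not tested. Col4a5 exceeded Col4a6 by 1.57 times in fiber, 1.84 times in epithelium and 4.02 times in forebrain. Col4a3 exceeded Col4a4 by 1.67 times in fiber and 1.46 times in epithelium, while both were under 0.1 RPKM in forebrain.

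**Figure D2:**
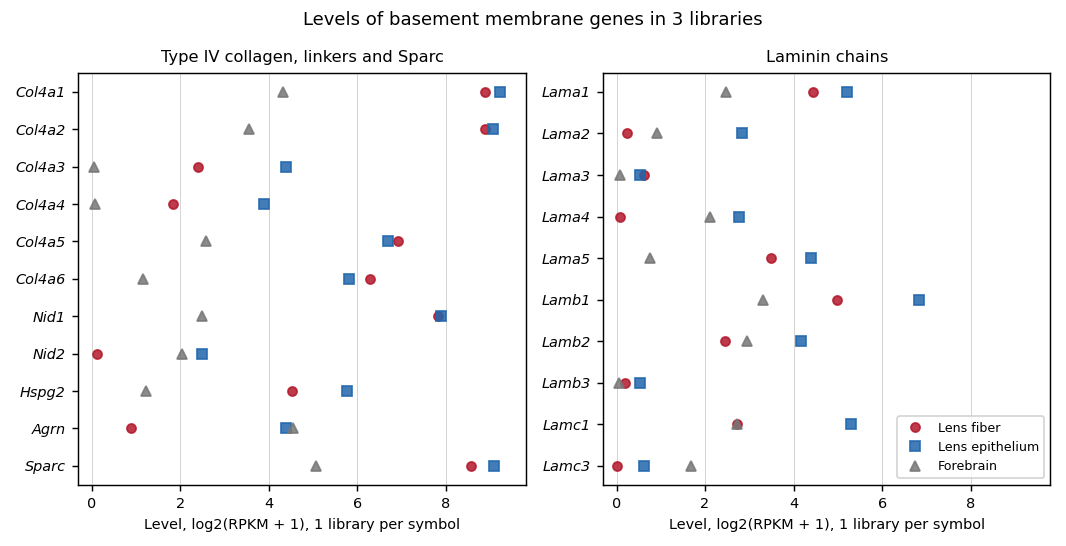
Levels of the named type IV collagen, linker, Sparc and laminin genes on the log2(RPKM + 1) scale, 1 symbol per library. All 6 type IV chains lie well to the right of forebrain in both lens libraries, while Nid2 and Lama4 lie near 0 in fiber and to the right of it in epithelium and forebrain.

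The proteins that bind the networks divided. Nid1 (nidogen), the bridge between laminin and type IV collagen, had 224 RPKM in fiber, 235 RPKM in epithelium and 4.64 RPKM in forebrain. The log2 ratios were 5.32 for fiber over forebrain, 5.39 for epithelium over forebrain and -0.07 for fiber over epithelium. Its paralog Nid2 had 0.0918 RPKM in fiber, 4.59 RPKM in epithelium and 3.11 RPKM in forebrain. Nid2 was thus near 0 in fiber, with log2 ratios of -1.91 over forebrain and -2.36 over epithelium, and differed between epithelium and forebrain by only 0.45. Nid1 made up 99.96% of the nidogen RPKM in fiber, 98.1% in epithelium and 59.9% in forebrain.

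Sparc, a secreted collagen-binding glycoprotein whose loss causes cataract in mice, had 379 RPKM in fiber, 544 RPKM in epithelium and 32.5 RPKM in forebrain. It ranked 160th among all genes in fiber and 58th in epithelium, against 1325th in forebrain. Its log2 ratios were 3.51 for fiber over forebrain, 4.02 for epithelium over forebrain and -0.52 for fiber over epithelium. Hspg2 (perlecan), the large heparan sulfate proteoglycan of basement membranes, had 22.1 RPKM in fiber, 53.4 RPKM in epithelium and 1.32 RPKM in forebrain. Both lens libraries were higher than forebrain for Hspg2 (log2 ratios of 3.32 and 4.55), and fiber was lower than epithelium (-1.23). Agrn (agrin), the proteoglycan that organizes the neuromuscular synapse and also occurs in other basement membranes, had 0.857 RPKM in fiber, 19.99 RPKM in epithelium and 22.3 RPKM in forebrain. Agrn was lower in fiber by log2 ratios of -3.65 over forebrain and -3.50 over epithelium, while epithelium over forebrain was -0.15.

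Among the laminin chains, the highest in each library was Lamb1, a beta chain of most embryonic laminins. It had 30.3 RPKM in fiber, 113 RPKM in epithelium and 8.90 RPKM in forebrain. Lamc1, the gamma chain common to most laminins, had 5.58 RPKM in fiber, 38.0 RPKM in epithelium and 5.58 RPKM in forebrain. Epithelium was the high library for both chains. Fiber over forebrain was 1.66 for Lamb1 and -0.00027 for Lamc1, so that these partner chains differed in how fiber compared with forebrain. Lamb1 exceeded Lamc1 by 5.43 times in fiber, 2.97 times in epithelium and 1.59 times in forebrain. Lamb2, the beta chain of the glomerulus and neuromuscular junction, had 4.42 RPKM in fiber, 16.9 RPKM in epithelium and 6.72 RPKM in forebrain, with log2 ratios of -0.51 for fiber over forebrain and 1.21 for epithelium over forebrain.

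Of the 5 alpha chains, Lama1 and Lama5 were higher than forebrain in both lens libraries. Lama1, the alpha chain of the earliest embryonic laminin, had 20.5 RPKM in fiber, 35.9 RPKM in epithelium and 4.56 RPKM in forebrain. Lama5, an alpha chain of many epithelial basement membranes, had 10.2 RPKM in fiber, 20.2 RPKM in epithelium and 0.679 RPKM in forebrain. The log2 ratios over forebrain in fiber and epithelium were 1.95 and 2.73 for Lama1 and 2.74 and 3.66 for Lama5. Fiber over epithelium was under 2-fold for both (-0.78 and -0.92), but passed 2-fold at -1.26 and -1.39 when the libraries were set to equal totals without crystallins.

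Lama4, known from endothelial basement membranes, had 0.0584 RPKM in fiber, 5.76 RPKM in epithelium and 3.30 RPKM in forebrain. Lama2, known from muscle and peripheral nerve, had 0.171 RPKM in fiber, 6.14 RPKM in epithelium and 0.892 RPKM in forebrain. Both were near 0 in fiber and lower there than in epithelium, by log2 ratios of -2.67 and -2.61. Epithelium over forebrain was 1.92 for Lama2, past 2-fold, and 0.65 for Lama4. They were high in the library where all 11 endothelial and 8 of 9 pericyte and smooth muscle markers reached 1 RPKM, and low in fiber, where 2 and 0 of these markers did; the part of vessel cells in this result was not tested. Lama1 made up 65.2% of the alpha chain RPKM in fiber, 52.4% in epithelium and 48.0% in forebrain. Lama4 made up 0.186%, 8.42% and 34.8% in the same order. With chains under 1 RPKM left out, the Lama1 shares were 66.8%, 52.8% and 58.0%, which put forebrain above epithelium. The Lama4 share in forebrain was then 42.0%.

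The other laminin genes were low. Lama3 and Lamb3 encode an alpha and a beta chain of the laminin that anchors the epidermis. Lama3 had 0.528 RPKM in fiber, 0.450 RPKM in epithelium and 0.0603 RPKM in forebrain, and Lamb3 had 0.133, 0.451 and 0.0326 RPKM in that order. Both stayed under 1 RPKM in all 3 libraries. Lamc3, a further gamma chain, was highest in forebrain, with 0 RPKM in fiber, 0.544 RPKM in epithelium and 2.19 RPKM in forebrain. Of the 11 laminin genes, 3 were higher and 2 lower than forebrain in fiber, 7 were higher and 1 lower than forebrain in epithelium, and 0 were higher and 6 lower in fiber than in epithelium. These counts come from the 7, 9 and 8 laminin genes that could be compared, in that order. Of all genes compared, 15.9% were higher and 31.6% lower than forebrain in fiber, and 13.7% and 11.9% in epithelium. For fiber over epithelium, 11.4% of all genes compared were higher and 28.3% lower.

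**Figure D3:**
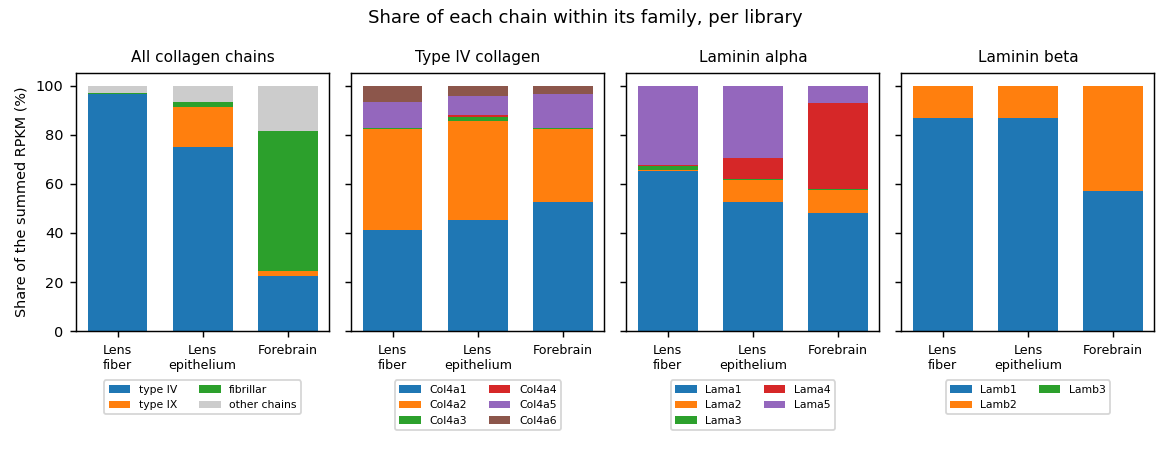
Share of each chain in the summed RPKM of its family, 1 bar per library: all collagens, type IV, laminin alpha and laminin beta chains. Type IV chains make up 96.4% of collagen RPKM in fiber, 74.8% in epithelium and 22.3% in forebrain, where fibrillar chains make up 56.7%.

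Outside type IV, collagens in the epithelium library were led by type IX, a fibril-associated collagen that coats type II fibrils in cartilage and vitreous. Col9a1 had 0.589 RPKM in fiber, 207 RPKM in epithelium and 0.438 RPKM in forebrain. Col9a2 had 1.503 RPKM in fiber, 47.6 RPKM in epithelium and 1.42 RPKM in forebrain, and Col9a3 had 0.895, 32.0 and 1.96 RPKM in that order. All 3 chains of the type IX trimer were therefore high in 1 library and under 2 RPKM in the others. Fiber over epithelium was -7.03 for Col9a1, -4.28 for Col9a2 and -4.12 for Col9a3. Epithelium over forebrain was 7.18, 4.33 and 3.48. Col9a1 exceeded Col9a2 by 4.35 times in epithelium, while it was at 0.392 times Col9a2 in fiber and 0.309 times in forebrain. The pigment and ciliary epithelium markers were also high in the epithelium library, where Pmel had 52.7 RPKM, against 0.754 RPKM in fiber and 0.0916 RPKM in forebrain. Their part in the type IX levels was not tested.

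The genes Col18a1, Col23a1 and Col5a1 were also highest in epithelium, with forebrain above fiber. Col18a1, a basement membrane collagen that carries a heparan sulfate chain and gives rise to endostatin, had 1.26 RPKM in fiber, 68.7 RPKM in epithelium and 10.9 RPKM in forebrain. Col23a1, a transmembrane collagen, had 0.609 RPKM in fiber, 24.9 RPKM in epithelium and 1.60 RPKM in forebrain. Col5a1, a minor fibrillar collagen that limits fibril diameter, had 1.01 RPKM in fiber, 10.7 RPKM in epithelium and 3.09 RPKM in forebrain. Fiber over epithelium was -4.95 for Col18a1, -4.01 for Col23a1 and -2.55 for Col5a1. Col18a1 was also lower in fiber than in forebrain, at -2.39, whereas the 6 type IV chains were all higher in fiber than in forebrain.

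Col6a3 ran the other way. It encodes the largest chain of type VI collagen, which forms beaded filaments from the chains of Col6a1, Col6a2 and Col6a3. It had 25.7 RPKM in fiber, 2.96 RPKM in epithelium and 0.834 RPKM in forebrain. The fiber library was the high one, with log2 ratios of 2.76 over epithelium and 3.87 over forebrain. The partner chains, named after their values were seen, were not high there: Col6a1 had 0.0915 RPKM in fiber, 2.91 RPKM in epithelium and 1.99 RPKM in forebrain, and Col6a2 had 0.0583, 0.718 and 1.56 RPKM in that order. Col6a3 made up 98.5% of type VI RPKM in fiber, 44.8% in epithelium and 18.6% in forebrain. Col6a3 and Col13a1, a transmembrane collagen with 3.76 RPKM in fiber and 1.07 RPKM in epithelium, were the only members higher in fiber than in epithelium by 2-fold, and Col13a1 lost that place under equal totals without crystallins.

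Some fibrillar collagens were highest in forebrain. Col3a1, the type III collagen of vessels and soft connective tissue, had 0.0669 RPKM in fiber, 1.94 RPKM in epithelium and 44.6 RPKM in forebrain, the highest forebrain value of all 60 genes. Col1a2, a chain of type I collagen, had 0.142 RPKM in fiber, 1.68 RPKM in epithelium and 12.7 RPKM in forebrain. Col5a2, a minor chain of the same fibrils, had 0.375 RPKM in fiber, 6.52 RPKM in epithelium and 13.4 RPKM in forebrain. Forebrain was the high library for all 3. Fiber over forebrain was -5.42, -3.59 and -3.39 for Col3a1, Col1a2 and Col5a2, and epithelium over forebrain was -3.95, -2.35 and -0.94. Of the 11 fibrillar genes, 8 could be compared for fiber over forebrain, with 0 higher and 7 lower, against 15.9% and 31.6% of all genes. In epithelium 1 was higher and 3 lower than forebrain, against 13.7% and 11.9% of all genes, and the median log2 ratio of the 9 compared was 0.13. The mesenchyme, fibroblast and meninges markers reached 1 RPKM for 2 of 12 genes in fiber, 4 in epithelium and 10 in forebrain, while their summed level was 170.5, 96.5 and 40.9 RPKM in that order. Their part was not tested.

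**Figure D4:**
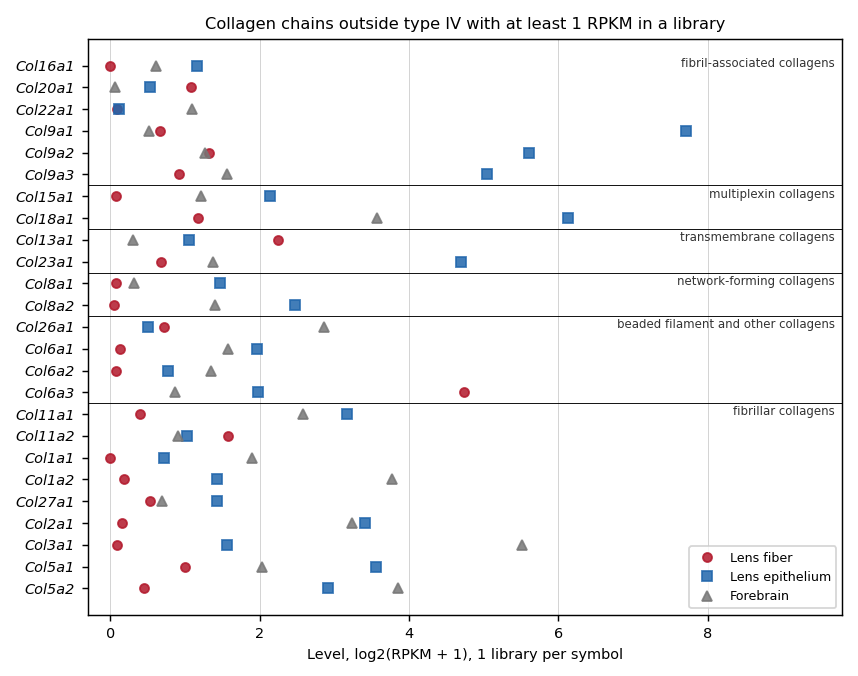
Levels of the 25 collagen chains outside type IV that reached 1 RPKM in some library, on the log2(RPKM + 1) scale, grouped by collagen class. Col9a1, Col9a2, Col9a3, Col18a1 and Col23a1 stand out in epithelium, Col6a3 in fiber and Col3a1 in forebrain.

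The remaining 28 genes, all collagens outside type IV under 10 RPKM in every library, were low throughout. Of these, 3 reached 1 RPKM in fiber, 10 in epithelium and 9 in forebrain. The highest value among them was 9.66 RPKM in epithelium for Col2a1, the cartilage and vitreous collagen, which had 0.116 RPKM in fiber and 8.45 RPKM in forebrain. Of all 60 genes, 15 stayed under 1 RPKM in all 3 libraries. Of the other 45, 6 were highest in fiber, 30 in epithelium and 9 in forebrain. The same split was not counted over all genes.

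Taking all 60 genes, more were detected in epithelium than in fiber or forebrain. At least 1 RPKM was reached by 21 genes in fiber, 39 in epithelium and 32 in forebrain, and at least 10 RPKM by 11, 21 and 8. Of all 23947 genes, 9687 reached 1 RPKM in fiber, 11650 in epithelium and 11413 in forebrain, the same order of libraries. The share at 10 RPKM was not counted over all genes. The summed RPKM of the 60 was 1885 in fiber, 2858 in epithelium and 258 in forebrain. This is 0.615%, 1.31% and 0.0987% of the RPKM of protein-coding genes other than crystallins. For epithelium over forebrain, 25 of the 60 were higher and 5 lower, 14 were under 2-fold and 16 did not reach 1 RPKM in either library. Of all genes compared there, 13.7% were higher and 11.9% lower. The median log2 ratio was 1.14 over the 44 members that could be compared and -0.03 over all genes. For fiber over forebrain, the median was -0.64 over the 39 members compared and -0.41 over all genes. Of these members, 15 were higher and 18 lower, against 15.9% and 31.6% of all genes compared. This balance turned with the treatment of low genes: 11 were higher and 6 lower with 5 RPKM added in place of 1, 11 and 7 with a filter at 5 RPKM, and 10 and 9 at 4-fold. The members thus split, with type IV chains, Nid1, Sparc, Hspg2, Lama1, Lama5 and Lamb1 among the higher ones and 7 fibrillar collagens among the lower.

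For fiber over epithelium, 40 members could be compared, of which 2 were higher, 27 lower and 11 under 2-fold. Of all genes compared, 11.4% were higher and 28.3% lower. The median was -1.78 over 40 members and -0.42 over all genes. The 11 within 2-fold included Col4a1, Col4a2, Col4a5, Col4a6, Nid1, Sparc, Lama1 and Lama5, which were also among the most abundant of the 60 in fiber. Collagens outside type IV had 2 higher and 16 lower of 21 compared. Laminins had 0 and 6 of 8 compared, and type IV had 0 and 2 of 6. The scaling of the fiber library bears on this contrast: genes with at least 1 RPKM in both lens libraries had a median log2 ratio of -0.20, and of -0.63 when the libraries were set to equal totals without crystallins. In that scaling 6.79% of all genes were higher and 42.3% lower, Col4a1 stood at -0.84 and Nid1 at -0.58, close to the shifted median, and Sparc passed 2-fold at -1.02.

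**Figure D5:**
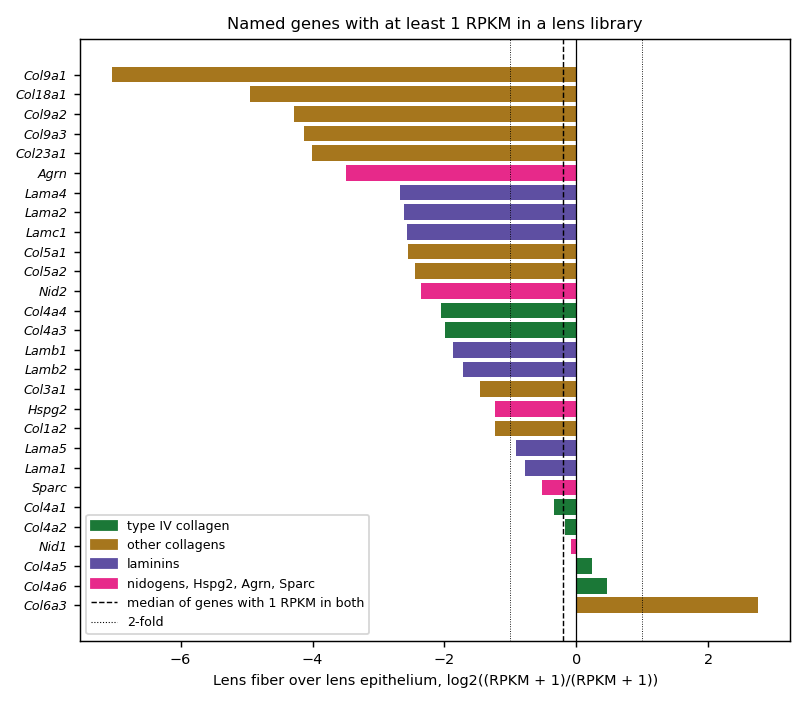
Log2 ratio of fiber over epithelium for the named genes with at least 1 RPKM in a lens library, sorted from low to high, with the median of genes expressed in both libraries as a dashed line and 2-fold as dotted lines. Most bars run to the left, Col9a1 farthest at -7.03, and Col6a3 is the only bar past 2-fold on the right.

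Genes that make and bind these proteins were followed as lists. The shares of all genes to set their counts against were 15.9% higher and 31.6% lower for fiber over forebrain, 13.7% and 11.9% for epithelium over forebrain, and 11.4% and 28.3% for fiber over epithelium. Of 15 collagen folding and modification genes in the table, 14 could be compared for fiber over forebrain, with 5 higher and 2 lower. All 15 could be compared for epithelium over forebrain, with 12 higher and 0 lower, and for fiber over epithelium, with 1 higher and 10 lower. The 1 higher in fiber was P4ha1, a catalytic subunit of the prolyl hydroxylase that stabilizes the collagen helix, with 94.1 RPKM in fiber, 28.4 RPKM in epithelium and 9.83 RPKM in forebrain. Its partner subunit P4hb, also protein disulfide isomerase, had 55.6 RPKM in fiber, 169 RPKM in epithelium and 112 RPKM in forebrain. The 2 subunits were therefore in opposite order between the lens libraries, with fiber over epithelium at 1.69 for P4ha1 and -1.59 for P4hb. Serpinh1, the collagen chaperone of the endoplasmic reticulum, had 74.3 RPKM in fiber, 190.0 RPKM in epithelium and 91.9 RPKM in forebrain.

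Of 15 cross-linking and propeptide cleavage genes, 9 could be compared for fiber over forebrain, with 4 higher and 3 lower, against 15.9% and 31.6% of all genes. For epithelium over forebrain 6 of 9 were higher and 1 lower, against 13.7% and 11.9%. For fiber over epithelium 0 of 6 were higher and 5 lower, against 11.4% and 28.3%. Pxdn (peroxidasin), which forms the sulfilimine cross-link of type IV collagen, had 34.8 RPKM in fiber, 90.9 RPKM in epithelium and 7.45 RPKM in forebrain. Loxl1, a lysyl oxidase of elastic fibers, had 26.0 RPKM in fiber, 59.0 RPKM in epithelium and 1.30 RPKM in forebrain. Both were higher than forebrain in each lens library, with fiber over forebrain at 2.08 for Pxdn and 3.56 for Loxl1.

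Of 25 matrix receptor genes, 16 could be compared for fiber over forebrain, with 8 higher and 2 lower, against 15.9% and 31.6% of all genes. For epithelium over forebrain 9 of 17 were higher and 1 lower, against 13.7% and 11.9%. For fiber over epithelium 3 of 18 were higher and 6 lower, near the 11.4% and 28.3% of all genes. Itgb1, the beta subunit shared by the laminin and collagen integrins, had 86.6 RPKM in fiber, 105 RPKM in epithelium and 37.3 RPKM in forebrain. Itga6, its laminin-binding alpha partner, had 39.7 RPKM in fiber, 18.8 RPKM in epithelium and 9.74 RPKM in forebrain, while Itga3, another laminin-binding alpha subunit, had 0.227, 15.5 and 0.761 RPKM in that order. Between the lens libraries these alpha subunits were in opposite order, with fiber over epithelium at 1.04 for Itga6 and -3.75 for Itga3. The syndecan gene Sdc4 had 4.48 RPKM in fiber, 57.3 RPKM in epithelium and 3.75 RPKM in forebrain.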

How the data were processed

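RNA-seq of 3 libraries, 1 each of lens fiber and lens epithelium (P1) and forebrain (E12.5), was used. Libraries were strand-specific (dUTP method), per the labels' protocols. The authors deposited 1 RPKM value per gene and library. The submitters' processing notes name mm9, TopHat2 (version 2), Cufflinks (version 2) and Cuffdiff without saying what each did. The sources used here do not give the annotation, the scaling between libraries, the counting by strand or the depth, and low values gave no whole-read steps from which reads could be recovered.

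Ratios are log2((RPKM + 1)/(RPKM + 1)) for genes that reached 1 RPKM in either library of a pair, called at 2-fold, without a test. The added 1 understates the change of low genes. Python 3.11.15, numpy 2.4.6 and pandas 2.3.3 were used, and the calls were tested on simulated data with planted folds. Of 23947 symbols, 23812 matched RefSeq (GRCm38.p6), which was used for names, gene types, overlaps and promoter windows only; all 60 members matched, of which 32 overlap another gene and 7 a protein-coding gene. Peak and island lists were not used, since no gene positions of mm9 were at hand.

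Every type IV collagen, laminin, nidogen, Hspg2, Agrn and Sparc was named whatever its value, except 1 that is not reported here. Other collagens were named from 10 RPKM in any library. Listed genes outside the 60 needed the same level, but only some of those that reached it were named. Ppib and Itgb5, for example, reached it and were not described. Exceptions are the genes said to be named after their values were seen and the few added to complete a count. The members, lists and thresholds were chosen with earlier results of these data known. Of 20 folding gene symbols listed, 15 were found, and the others are alternative symbols of genes among these. Alternatives were pseudocounts of 0.1 and 5 RPKM, no filter or one of 5 RPKM, equal totals without crystallins, median centring, 4-fold calls and, chosen after seeing the data, equal totals of protein-coding genes without crystallins.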

Additional observations from a re-analysis of the deposited data

How the results depend on the processing

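Several counts of members moved. Higher than forebrain in epithelium were 25 members, against 29 with 0.1 RPKM added and 21 with a filter at 5 RPKM. With 5 RPKM added, and also at 4-fold, 18 were higher. Lower than forebrain in epithelium were 5 members, against 8 with 0.1 RPKM added and 3 with 5 RPKM added, with a filter at 5 RPKM or at 4-fold. Lower than forebrain in fiber were 18, against 6 with 5 RPKM added, 7 with a filter at 5 RPKM and 9 at 4-fold; 15 were higher, against 11, 11 and 10, so in these settings more members were higher than lower, and under median centring 15 were higher and 15 lower. Higher in fiber than in epithelium were 2, against 1 with 5 RPKM added, with a filter at 5 RPKM, at 4-fold and under both equal-total scalings. Lower in fiber than in epithelium were 27, against 17 at 4-fold and 18 with 5 RPKM added or with a filter at 5 RPKM. Under both equal-total scalings this count rose to 32. A larger pseudocount, filter or fold removes low genes by construction. Of 480 alternative values for 96 ratios of named genes, 445 kept their call, 20 fell under 2-fold, 15 passed it and 0 reversed while called. Those that kept their call include ratios under 2-fold that changed sign. Of 35 alternative shares, 5 moved when members under 1 RPKM were left out. Equal totals without crystallins set all genes of fiber over forebrain to 11.4% higher and 41.3% lower, and equal totals of protein-coding genes set epithelium over forebrain to 18.0% and 9.03%. Under median centring Col4a2 (0.03) and Nid1 (0.13) changed sign for fiber over epithelium, both under 2-fold. No paired analysis was possible because each group held 1 library and no test was made. Depth is unknown, so values near 0 cannot be told from undetected expression.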

Other observations

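Matrix proteases, their inhibitors and other matrix proteins, taken from lists chosen with earlier results known, also differed between the lens libraries. Of 19 degradation and inhibitor genes, 18 could be compared for fiber over epithelium, with 2 higher and 14 lower, against 11.4% and 28.3% of all genes. For fiber over forebrain 4 of 15 were higher and 6 lower, against 15.9% and 31.6%, and for epithelium over forebrain 9 of 16 were higher and 0 lower, against 13.7% and 11.9%. The tissue inhibitors of metalloproteinases did not go one way. Those higher in fiber than in epithelium were Timp3 and Timp4, while Timp1, named after its values were seen, was lower, at a log2 ratio of -1.76, and Timp2 was under 2-fold at -0.76. Timp3, which binds to the matrix, had 41.9 RPKM in fiber, 13.6 RPKM in epithelium and 3.72 RPKM in forebrain, and Timp4 had 18.8, 0.0326 and 0.198 RPKM in that order. Ctsl, the lysosomal protease cathepsin L, had 55.5 RPKM in fiber, 324 RPKM in epithelium and 16.9 RPKM in forebrain. Of the protease genes, Mmp14, a membrane-bound collagenase, had 0.334 RPKM in fiber, 14.7 RPKM in epithelium and 10.6 RPKM in forebrain.

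Of 30 other matrix genes, 20 could be compared for fiber over epithelium, with 0 higher and 16 lower, against 11.4% and 28.3% of all genes. For fiber over forebrain 0 of 22 were higher and 14 lower, against 15.9% and 31.6%, and for epithelium over forebrain 12 of 24 were higher and 4 lower, against 13.7% and 11.9%. Tinagl1, a secreted basement membrane protein, had 0.443 RPKM in fiber, 76.1 RPKM in epithelium and 0.515 RPKM in forebrain. Npnt (nephronectin), an integrin ligand that is also on the lens epithelium marker list, had 1.73, 37.7 and 0.650 RPKM in that order. Fbn2, a microfibril protein, had 0.0653 RPKM in fiber, 29.1 RPKM in epithelium and 2.03 RPKM in forebrain. Vcan (versican), a large proteoglycan, was highest in forebrain at 35.2 RPKM, with 0.157 RPKM in fiber and 7.13 RPKM in epithelium. Ogn, a small proteoglycan on the mesenchyme list, gave most of the 170.5 RPKM of that list in fiber.

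The remaining marker lists, summed over their genes, gave these levels. Red blood cell markers had 6.55 RPKM in fiber, 346 RPKM in epithelium and 5642 RPKM in forebrain. Myeloid markers had 0.790 RPKM in fiber, 24.0 RPKM in epithelium and 10.5 RPKM in forebrain, and retina markers had 2.73, 21.6 and 8.14 RPKM in that order. Cornea and surface epithelium markers had 0.0936 RPKM in fiber, 0.388 RPKM in epithelium and 0.279 RPKM in forebrain, with 0 of 7 genes at 1 RPKM in any library.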
